A study of Rattus norvegicus with 6 samples.

Results

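Vessels of the brain are lined by endothelial cells and wrapped by mural cells, that is, pericytes and smooth muscle. The miRNAs that mark these layers were followed in the orbitofrontal cortex, part of the frontal lobe that serves decisions. They comprise all names of the miR-126a, miR-126b, miR-143 and miR-145 hairpins in the count table, taken by a rule on names alone. Earlier results of these data were known when the rule was set. This rule gave 7 names of the 842 listed, which are rno-miR-126a-3p, rno-miR-126a-5p, rno-miR-126b, rno-miR-143-3p, rno-miR-143-5p, rno-miR-145-5p and rno-miR-145-3p.

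Tissue came from male Sprague Dawley rats, an outbred stock, all adult. All animals had 3 surgeries, on days 1, 4 and 7, and were killed on day 42. In the 3 injured animals each surgery was a controlled cortical impact, a piston blow 2 mm deep delivered at 5 m/s, meant to model repeated mild traumatic brain injury. The 3 sham animals had sham surgery with no impact, so the number and days of surgery were common to both groups. Small RNA was sequenced from each animal, and libraries held 12538288 to 23680840 counted reads. No batch is given in the labels, and replicate numbers serve only as names of the libraries. Sham and injured libraries of the same replicate number carry adjacent numbers in their sample titles, and what that order stands for is not given.

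miR-126 is an endothelial miRNA that lies inside Egfl7, a gene for a protein secreted by endothelial cells. Its 3p strand is known in mouse and zebrafish to raise signalling by vascular endothelial growth factor through repression of Spred1 and a regulatory subunit of phosphoinositide 3-kinase, and its 5p strand is known in mouse to repress Dlk1. miR-143 and miR-145 come from 1 primary transcript, the long non-coding RNA Carmn. In mouse they are known to hold vascular smooth muscle in its contractile state, and miR-145 represses the transcription factors Klf4 and Klf5. In brain tissue both are used as signs of pericytes and smooth muscle, although fibroblasts and other mesenchymal cells also make them.

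The sequences are shown because the arms and the antisense pair are compared throughout. All 7 names were matched by name in RefSeq's table for the rat build GRCr8. The letters below run 5′ to 3′, and capitals mark the seed, bases 2 to 8, with which a miRNA chooses its targets.

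miR-126a-3p: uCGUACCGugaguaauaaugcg
miR-126a-5p: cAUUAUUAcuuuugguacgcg
miR-126b: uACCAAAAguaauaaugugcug
miR-143-3p: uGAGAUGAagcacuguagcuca
miR-143-5p: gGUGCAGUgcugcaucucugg
miR-145-5p: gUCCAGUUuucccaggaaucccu
miR-145-3p: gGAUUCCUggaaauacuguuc

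The 7 seeds differ from one another, and none was shared with another of the 614 listed names that have a RefSeq sequence. Mature lengths were 21 to 23 bases. In GRCr8 the miR-126a arms lie on the plus strand of chromosome 3, from 29813182 to 29813202 for 5p and from 29813219 to 29813240 for 3p, within the span of Egfl7. RefSeq files them under the gene symbol Mir126b, and miR-126b under Mir126a. miR-126b runs from 29813177 to 29813198 on the minus strand, so it is antisense to miR-126a-5p. Capitals in the next pair mark the 17 bases where each is the reverse complement of the other.

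miR-126a-5p: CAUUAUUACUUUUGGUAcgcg
miR-126b: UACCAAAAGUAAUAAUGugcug

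How the authors' counting used strand is not given in the sources used here, so the values of miR-126b may hold reads of its partner or the reverse. The miR-145 and miR-143 hairpins lie on the minus strand of chromosome 18, both within Carmn and with 1278 bases between them. Their GRCr8 positions are 57369983 to 57370070 for miR-145 and 57371349 to 57371453 for miR-143. No hairpin sequence of miR-126a was given in the sources used here, so only these hairpins are printed. Capitals mark the mature arms, 5p first.

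miR-143 hairpin: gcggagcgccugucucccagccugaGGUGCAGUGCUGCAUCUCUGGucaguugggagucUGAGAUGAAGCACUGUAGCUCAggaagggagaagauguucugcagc
miR-145 hairpin: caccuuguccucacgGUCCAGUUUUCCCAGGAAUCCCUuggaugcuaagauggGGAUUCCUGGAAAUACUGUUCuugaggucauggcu

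Together the 7 names took 2.79% to 4.34% of counted reads per library, most of it miR-143-3p. Marker miRNAs of the labelled tissue were present in every library. The 3 neuronal markers, miR-124-3p, miR-128-3p and miR-9a-5p, summed to 278476 to 313461 CPM, the usual read count relative to all counted reads of a library. Over all tested miRNAs the libraries were alike, with Spearman correlations from 0.959 to 0.989 between pairs. Sham replicate 2 and injured replicate 2, which lie at an end of the range for several of the 7 names, correlated at 0.977 with each other, and each had a higher correlation with another library. Of the 534 miRNAs tested, 30.5% had both of these libraries below or both above all others, a pair chosen after the values of miR-145-5p were seen. That share was not computed for other pairs. Epithelial miRNAs of the miR-200 family were also uneven, from 7.40 CPM in injured replicate 1 to 3597 CPM in sham replicate 1.

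**Figure D1:**
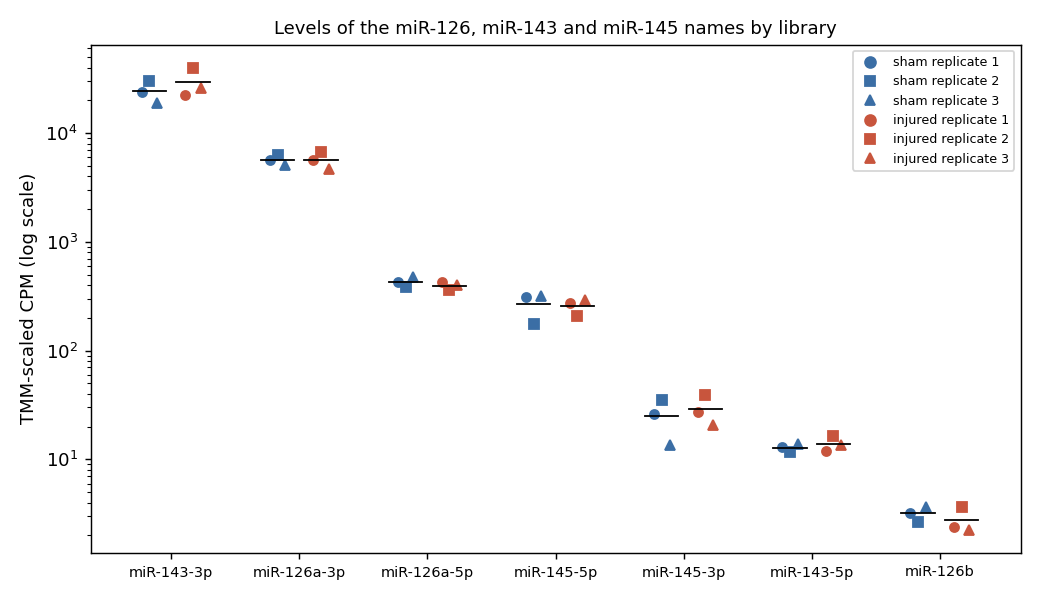
TMM-scaled CPM of the 7 names on a log axis, 1 point per library, with black bars at the group means (n = 3 each). The names span from miR-143-3p, with a sham mean of 24288 CPM and an injured mean of 29395 CPM, down to miR-126b at 3.19 and 2.76 CPM, and sham and injured points overlap for each name.

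No difference between injured and sham animals was detected for any of the 7 vascular names. In edgeR's quasi-likelihood test across all 534 miRNAs, 0 of the 7 were called at an adjusted p of 0.05, and 0 of all 534 were called, a background of 0%. At an unadjusted p under 0.05 there were 0 of the 7 and 12 of the 534, and DESeq2 and limma-voom also called 0 of 534. The groups overlapped in CPM for all 7 names, where 7.87% of tested miRNAs had groups that did not overlap. On the log2 scale 3 of the 7 fold changes of injured over sham were positive and 4 negative. Their median was -0.01, beside -0.03 over all 534. In bulk tissue, fewer cells of a type and less RNA per cell cannot be told apart.

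The endothelial strand miR-126a-3p was abundant, between the 29th and the 34th highest name in each library. Scaled by TMM, which sets libraries on a common footing from the bulk of their miRNAs, it had 5674, 6262 and 5097 CPM in sham replicates 1, 2 and 3. Injured replicates 1, 2 and 3 had 5636, 6629 and 4648 CPM. The injured animals held both the highest and the lowest value, with the sham animals between them. CPM averaged 5678 ± 583 in the sham and 5638 ± 990 in the injured group (n = 3 each, SD). Its log2 fold change was -0.01 ± 0.16 (SE) with a 95% interval from -0.39 to 0.37, that is, from 0.762-fold to 1.29-fold (edgeR adjusted p = 0.985). Its sign was not fixed, since other scalings gave 0.02 and 0.13. Without TMM scaling the 3 sham libraries lay between 5781 and 5788 CPM, much closer together than after scaling, and the injured ones between 4900 and 6105 CPM.

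The partner strand miR-126a-5p was read less often in each library. Sham replicates 1, 2 and 3 had 424, 387 and 474 CPM, and injured replicates 1, 2 and 3 had 432, 358 and 400.2 CPM. Replicate 2 was the lowest of its group in both sham and injured animals. Injured over sham gave a log2 fold change of -0.11 ± 0.16 (SE) with an interval from -0.48 to 0.26 (edgeR adjusted p = 0.900). Upper-quartile scaling, which moved the median of all tested miRNAs by 0.15, gave 0.03 for this strand.

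The antisense name miR-126b was rare. It had 41, 48 and 99 reads in sham replicates 1, 2 and 3 and 51, 58 and 52 reads in injured replicates 1, 2 and 3. The 95% Wilson intervals, which cover counting error only, ran from 3.43 to 5.09 CPM in sham replicate 3, the highest library, and from 1.74 to 3.01 CPM in injured replicate 1, the lowest. Those of the other 4 libraries reached from 1.81 to 4.44 CPM, so most libraries could not be told apart by counting error alone. For each read of miR-126b there were 1384 to 2375 reads of miR-126a-3p. Its log2 fold change was -0.22 ± 0.28 (SE), with an interval from -0.87 to 0.44. The value was -0.57 without both replicates 2, and -0.43 without sham replicate 1 and injured replicate 2, the libraries with the most miR-200 family reads.

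The mural strand miR-143-3p was the most abundant of the 7 and ranked 5th of all names in 5 libraries and 7th in sham replicate 3. Sham replicates 1, 2 and 3 had 24011, 29900 and 18954 CPM. Injured replicates 1, 2 and 3 had 22567, 39868 and 25750 CPM. In both groups replicate 2 was the highest, and injured replicate 2 was above all others. CPM averaged 24288 ± 5478 in the sham and 29395 ± 9209 in the injured group (n = 3 each, SD). Its log2 fold change of 0.28 ± 0.25 (SE) had an interval from -0.32 to 0.87, so a change from 0.802-fold to 1.83-fold lay within it (edgeR adjusted p = 0.878). Without injured replicate 2 the log2 fold change was 0.01, and without both replicates 2 it was 0.18.

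Its partner strand miR-143-5p was rare, with 165 to 373 reads per library and 11.8 to 16.3 CPM. The sham mean was 12.8 ± 1.1 CPM and the injured mean 13.9 ± 2.2 CPM (n = 3 each, SD). A log2 fold change of 0.11 ± 0.20 (SE) had an interval from -0.35 to 0.57. Without both replicates 2 it was -0.07.

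miR-145-5p, the leading strand of the neighbouring hairpin, was far less abundant than miR-143-3p and did not follow it across libraries. Sham replicates 1, 2 and 3 had 308, 174 and 320.1 CPM, and injured replicates 1, 2 and 3 had 273, 208 and 291 CPM. The lowest values were those of replicate 2 in both groups, the libraries in which miR-143-3p was highest. Injured over sham, miR-145-5p had a log2 fold change of -0.06 ± 0.27 (SE) with an interval from -0.68 to 0.57 (edgeR adjusted p = 0.971). It was -0.15 without both replicates 2, 0.10 without injured replicate 2 alone and 0.22 without sham replicate 1 and injured replicate 2, which lead in the miR-200 family.

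The partner strand miR-145-3p ran the other way. It had 26.0, 35.3 and 13.5 CPM in sham replicates 1, 2 and 3 and 27.4, 38.7 and 20.5 CPM in injured replicates 1, 2 and 3. Replicate 2 was the highest and replicate 3 the lowest in both groups. The log2 fold change of 0.21 ± 0.38 (SE) had the widest interval of the 7, from -0.68 to 1.11 (edgeR adjusted p = 0.911). It moved to 0.59 without sham replicate 2 and to -0.09 when sham replicate 3 was omitted, and omitting injured replicate 2 gave -0.04.

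**Figure D2:**
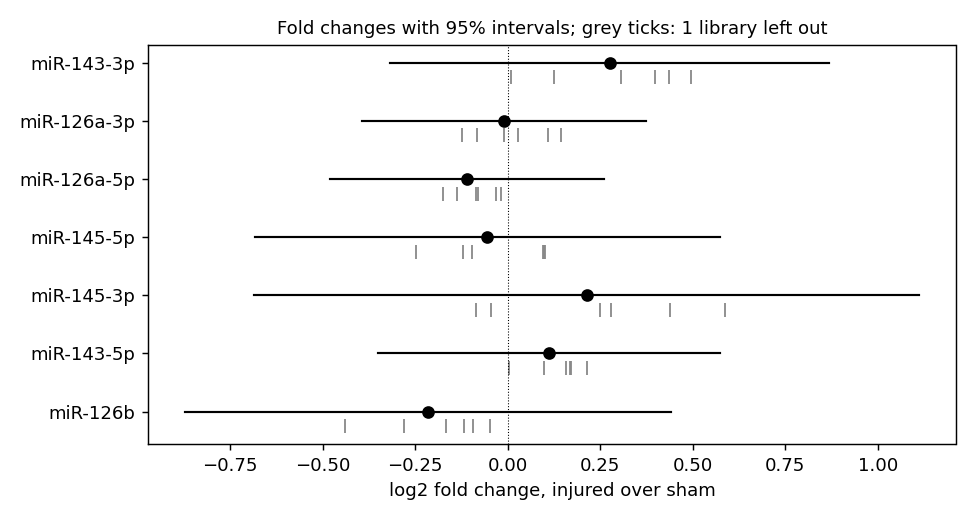
Log2 fold changes of injured over sham from edgeR (black points) with 95% intervals (black lines), and the same value with each library left out in turn (grey ticks). All 7 intervals include 0, and that of miR-145-3p, from -0.68 to 1.11, is the widest.

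Across the 6 libraries the levels kept a fixed order for the most part. miR-143-3p was 3.72 to 6.01 times as high as miR-126a-3p, and miR-126a-5p was above miR-145-5p in each library. The order of miR-145-3p and miR-143-5p was not fixed, since sham replicate 3 had 13.5 CPM of the former and 13.9 CPM of the latter. Reads stand for whole molecules of nearly equal length here, but ligation-based kits capture sequences unequally, so the order is one of reads.

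The names also differed in steadiness. Both arms of miR-126a were steadier than both arms of miR-145, while the arms of miR-143 lay far apart. The coefficient of variation of CPM over all 6 libraries was 9.74% for miR-126a-5p, 12.5% for miR-143-5p and 12.9% for miR-126a-3p. It was 21.2% for miR-126b, 22.3% for miR-145-5p, 27.3% for miR-143-3p and 34.5% for miR-145-3p. The median over the 206 miRNAs with a mean of at least 100 CPM was 16.2%, and 40 of these were steadier than miR-126a-5p, 171 less variable than miR-143-3p. This depended on scaling. With library totals, miR-126a-3p had 7.41% and only 13 of the 206 were steadier, whereas miR-126a-5p had 17.4%, close to the median of 16.98%.

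The ratio of miR-143-3p to miR-145-5p asks whether the products of 1 transcript kept their proportion. It was 78.0, 172 and 59.2 in sham replicates 1, 2 and 3 and 82.8, 192 and 88.5 in injured replicates 1, 2 and 3. Replicate 2 of each group had a ratio at least 1.94 times that of any library outside this pair. Of the remaining libraries, the sham values, 78.0 and 59.2, lay below the injured values, 82.8 and 88.5. On the log2 scale the sham mean was 6.53 ± 0.80 and the injured mean 6.81 ± 0.67 (SD, n = 3 each). The difference of 0.27 gave an exact two-sided permutation p of 0.5, in a design with 3 against 3 that cannot go below 0.1. Without injured replicate 2 the difference was -0.11, and without both replicates 2 it was 0.33.

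The 5p and 3p arms of miR-126a kept a steadier ratio. There were 13.4, 16.2 and 10.8 reads of 3p per read of 5p in sham replicates 1, 2 and 3, and 13.1, 18.5 and 11.6 in injured replicates 1, 2 and 3. Replicate 2 was again the highest in both groups and replicate 3 the lowest. The log2 means were 3.73 ± 0.30 for sham and 3.82 ± 0.35 for injured libraries (n = 3 each, SD), a difference of 0.09 (exact two-sided permutation p = 0.8). Without injured replicate 2 it was -0.11.

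Mural against endothelial reads were compared in 2 ways. miR-143-3p to miR-126a-3p stood at 4.23, 4.77 and 3.72 in sham replicates 1, 2 and 3 and at 4.00, 6.01 and 5.54 in injured replicates 1, 2 and 3, with overlapping groups. Its log2 difference was 0.28 (exact two-sided permutation p = 0.3). miR-145-5p to miR-126a-3p had a log2 difference of 0.002 (exact permutation p = 1). Over the 6 ratios tested, no adjusted p fell under 0.96 after Benjamini-Hochberg correction of the exact permutation p-values.

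**Figure D3:**
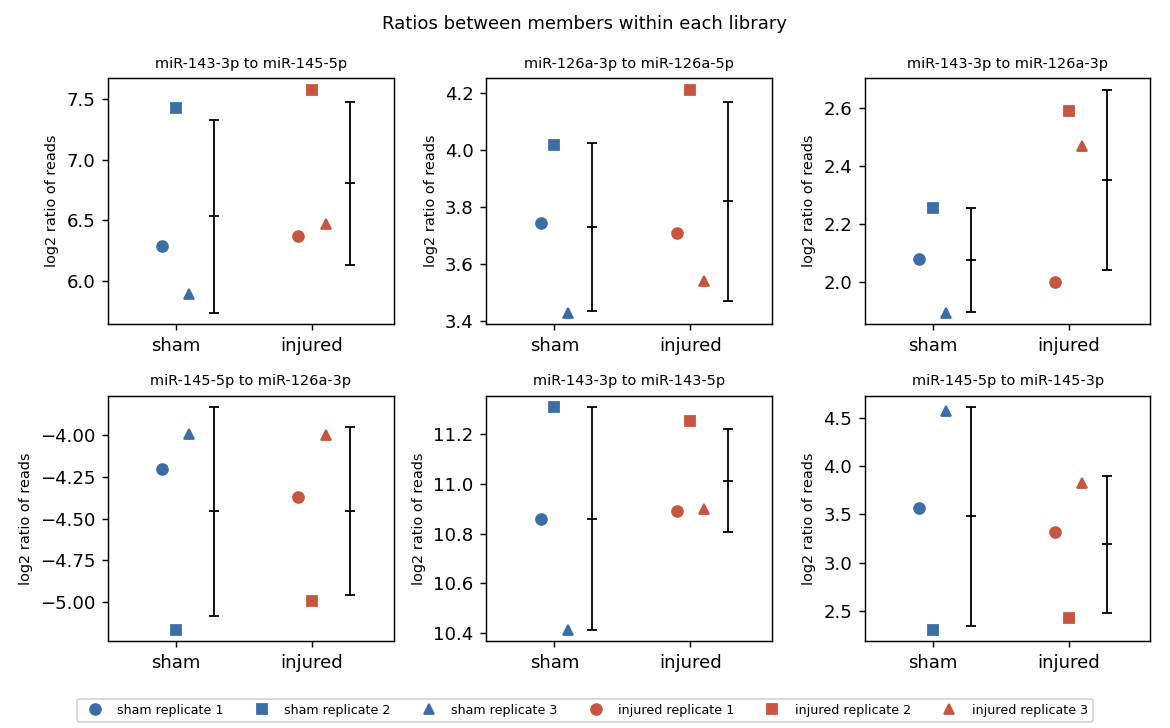
Log2 ratios of reads between members within a library, for 6 ratios, 1 point per library, with black bars for the group mean and SD (n = 3 each). Square points, the replicate 2 of each group, lie at an end of their group in all 6 panels, at 172 and 192 on the linear scale for miR-143-3p to miR-145-5p.

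The 3 hairpins differed in how strongly they favoured 1 arm. miR-143 gave 1367 to 2544 reads of 3p per read of 5p, the 5th strongest preference among 153 hairpins with both arms counted. miR-145 favoured the 5p arm, at 11.9, 4.93 and 23.7 reads of 5p per read of 3p in sham replicates 1, 2 and 3 and 9.96, 5.38 and 14.2 in injured replicates 1, 2 and 3. Its 3p arm thus made up between 4.05% of the hairpin's mature reads, in sham replicate 3, and 16.9%, in sham replicate 2. The log2 ratio of 5p to 3p spanned 2.26 units over the 6 libraries for miR-145, the 8th widest of the 153 hairpins, against 0.78 for miR-126a and 0.90 for miR-143. The median span over all hairpins was 0.94.

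No difference in arm ratio between injured and sham animals was detected for the 3 hairpins. With limma across the 153 hairpins, 0 were called at an adjusted p of 0.05, a background of 0%, with 5 at an unadjusted p under 0.05. The difference of injured minus sham in log2 5p to 3p was -0.09 ± 0.28 (SE) for miR-126a, with an interval from -0.72 to 0.54. For miR-143 it was -0.15 ± 0.29, with an interval from -0.80 to 0.50. For miR-145 it was -0.29 ± 0.55, with an interval from -1.54 to 0.96. Without both replicates 2 these values were -0.04, -0.26 and -0.50, and that of miR-145 was 0.25 without sham replicate 3.

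For all 3 hairpins the 5p to 3p ratio was lowest in the replicate 2 libraries of both groups and highest in sham replicate 3. In 23 hairpins, 15.03%, both replicate 2 libraries had the lowest 5p to 3p ratios, these 3 included, and in 23 others the highest. The oligodendrocyte markers miR-219a-5p and miR-338-3p were also lowest in both replicate 2 libraries. Both were detected in each library, and their sum was 151 CPM in sham replicate 2 and 137 CPM in injured replicate 2, against 239 to 298 CPM in the other 4. Of the endothelial names listed below, miR-126a-5p, miR-221-3p, miR-92a-3p, miR-23a-3p, miR-210-3p, miR-322-5p and miR-503-5p were also lowest in both, and miR-126a-3p was highest. Of the mural names, miR-145-5p, miR-152-3p and miR-365-3p were lowest in both, and miR-143-3p and miR-145-3p were highest. Being lowest in both replicate 2 libraries was shared by 17.6% of all tested miRNAs, and being highest in both by 12.9%. Neuronal miR-128-3p and choroid plexus miR-204-5p were highest in both, while the other markers of these cell types were not. The part of any of these markers in the vascular ratios was not tested.

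**Figure D4:**
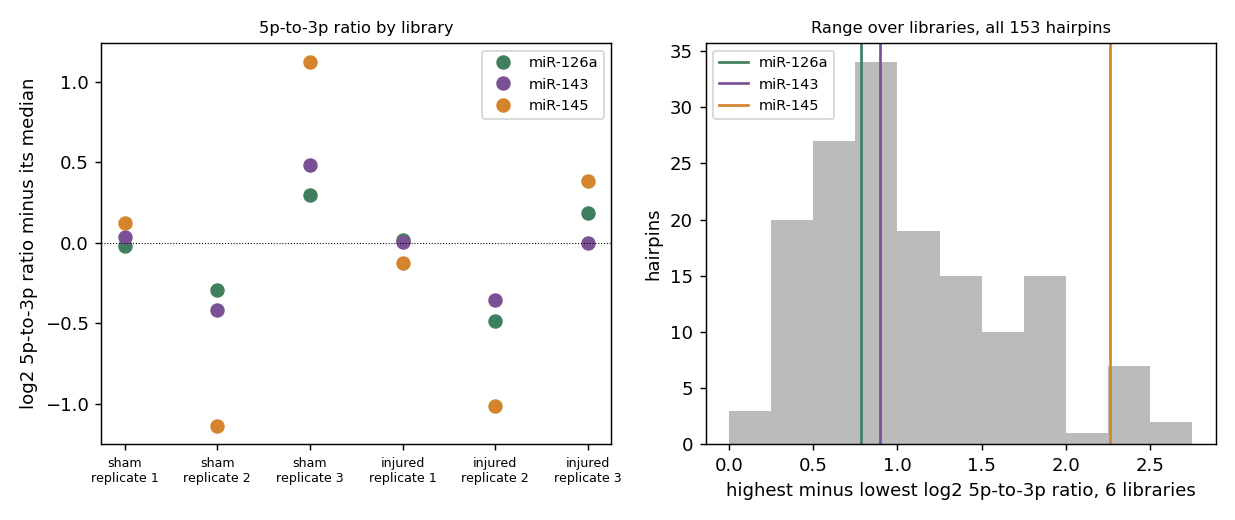
Left, the log2 5p-to-3p ratio of each hairpin minus its median, by library. Right, the span of that ratio over the 6 libraries for all 153 hairpins (grey bars, number of hairpins), with lines at 0.78 for miR-126a, 0.90 for miR-143 and 2.26 for miR-145. Replicate 2 of both groups lies lowest for all 3 hairpins.

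Over the 6 libraries, and among 509 miRBase names, the miRNAs most like each member in log2 CPM were other names than its own transcript or hairpin partner. For miR-143-3p they were miR-151-3p, miR-148a-3p and miR-99a-5p (Pearson r of 0.996, 0.968 and 0.967 over 6 libraries). For miR-145-5p they were miR-301a-3p, miR-93-5p and miR-107-3p, with r of 0.962, 0.960 and 0.954. For miR-126a-3p they were miR-181a-2-3p, miR-224-5p and miR-204-5p, with r of 0.981, 0.980 and 0.940, and for miR-126a-5p miR-31a-5p, miR-16-5p and miR-361-5p, with r of 0.976, 0.975 and 0.971. With 6 libraries and 509 names, these values are given only as a description. For the rarer strands the most alike were miR-3064-5p for miR-126b at 0.860, miR-92b-5p for miR-143-5p at 0.909 and miR-212-5p for miR-145-3p at 0.989.

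Other vascular miRNAs were taken from lists of names. Of 15 names on an endothelial list, 14 were tested, 3 of them from miR-126. Injured over sham was positive for 6 and negative for 8, with a median log2 fold change of -0.06 beside -0.03 over all tested miRNAs, and 0 were called, with 0 at an unadjusted p under 0.05. miR-222-3p, which is known to restrain the stem cell factor receptor Kit in human endothelium, averaged 850.0 ± 122 CPM over sham and 1040.4 ± 88.7 CPM over injured libraries (n = 3 each, SD). Its log2 fold change was 0.29 ± 0.16 (SE), its groups did not overlap, and its edgeR adjusted p was 0.878. miR-23a-3p, from the miR-23a/27a/24 cluster, had -0.48 ± 0.28.

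The mural and mesenchymal list held 13 tested names of 14, 4 of them from miR-143 and miR-145. There 5 were positive and 8 negative, with a median of -0.15 and 0 called. At an unadjusted p under 0.05 there were 3 of the 13, beside 12 of all 534, and none of the 3 was from miR-143 or miR-145. Of the 4 names of miR-143 and miR-145, 3 were positive, while 7 of the other 9 names were negative, beside 290 of all 534. No test of that contrast was made. In 17 alternatives the sign reversed 5 times for miR-145-5p, 3 for miR-145-3p, 1 for miR-143-5p and 0 for miR-143-3p. The lowest was miR-214-3p, which shares a transcript with miR-199a in mesenchymal cells, at -1.94 ± 0.39 (SE; edgeR adjusted p = 0.813). This name was rare, averaging 2.39 ± 0.90 CPM over sham and 0.63 ± 0.17 CPM over injured libraries (n = 3 each, SD). miR-195-5p, of the miR-15/16 seed family, averaged 123 ± 40 CPM over sham and 77.9 ± 12.2 CPM over injured libraries, with a log2 fold change of -0.66 ± 0.26 (edgeR adjusted p = 0.878). The third was miR-199a-3p, at -0.49 ± 0.20 (SE). Groups did not overlap for 4 of the 13 mural names and 1 of the 14 endothelial names, beside the 7.87% of all tested miRNAs. The 4 mural names were miR-199a-3p, miR-199a-5p, miR-214-3p and miR-195-5p. As miR-199a and miR-214 share a transcript, the mural counts do not rest on separate miRNAs.

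**Figure D5:**
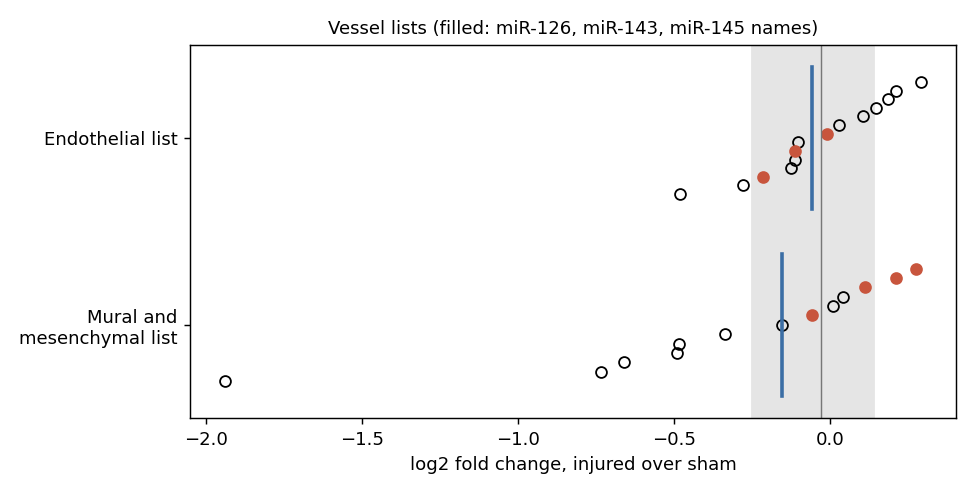
Log2 fold changes of injured over sham for the tested names of the endothelial list (14) and the mural and mesenchymal list (13), with filled points for miR-126, miR-143 and miR-145 names, and height only separating points. Blue bars mark the list medians of -0.06 and -0.15, the grey line the median over all tested miRNAs (-0.03) and the shaded band their middle quartiles.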

How the data were processed

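The authors deposited 1 table of 842 names with raw read counts and TPM values per library, per the file headers. TPM equalled the count divided by the library total, to within 4.66e-10, with no length term. Bowtie and the build rn6 are named in the submitters' processing notes, and the counter, annotation release and filters remain not given in the sources used here. Per the labels' protocols, 2 μg of total RNA per animal went into ligation-based libraries selected by size on a gel.

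Counts were tested with edgeR 4.0.16 (R 4.3.3; quasi-likelihood F-test, TMM, filterByExpr with minimum count 10 and minimum total 15) with Benjamini-Hochberg adjustment over 534 miRNAs. Each standard error was derived as the size of the log2 fold change over the root of F. Arm ratios used limma 3.58.1 on log2 ratios (0.5 added to each count) where both arms averaged 10 or more reads, and ratios between names used exact permutation tests. List sums and Wilson intervals are in unscaled CPM, and other CPM values are TMM-scaled. Totals include both names of 26 pairs with counts within 1% of each other, none a member here, whose second names held 20.6% to 23.2% of reads and lower every CPM. Named beyond the 7 members are, for each, the 3 names most alike in log2 CPM (prior count 2), of which the first alone is given for the rarer strands, and the 2 others of smallest p in each vessel list. Also named are miR-199a-3p, the remaining mural name at an unadjusted p under 0.05, and markers of other cell types. Vessel-list names lowest or highest in both replicate 2 libraries are named too, as are the mural names whose groups did not overlap. Members and lists were chosen with earlier results of these data known. The edgeR fit and the limma arm fit were tested on simulated data, and the other procedures were not. Alternatives covered scaling, filter, tool, pseudocount, duplicate names and omitted libraries.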

Additional observations from a re-analysis of the deposited data

How the results depend on the processing

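No member was called under any of the 17 alternatives to the edgeR fit or the 11 to the arm fit. Of 273 values, 231 were labelled as kept. For fold changes and ratios this means the same direction and side of the threshold, for list medians a move smaller than the replicate spread. For counts of miRNAs or hairpins called it means an unchanged count. The direction reversed in 39 values, and 3 moved. For the ratios between names, the exact permutation p cannot go below 0.1. Their side of the threshold was therefore fixed, and only their direction could change. The arm ratios of miR-126a, miR-143 and miR-145 enter these counts both as ratios between names and as limma differences. Over all miRNAs, 1 was called when sham replicate 1 and injured replicate 2, which lead in the miR-200 family, were left out and 0 otherwise. The log2 fold change of miR-126a-3p turned positive with RLE factors (0.018), upper-quartile factors (0.13), no filter (0.0044), DESeq2 (0.018) and 1 name per duplicate pair (0.016). Upper-quartile factors also gave 0.034 for miR-126a-5p and 0.095 for miR-145-5p, beside a median of 0.12 over all miRNAs. They moved the list medians to 0.090 (endothelial) and 0.0047 (mural). Without these libraries, placed by the miR-200 family, the log2 fold changes were -0.010 for miR-145-3p, 0.22 for miR-145-5p, -0.43 for miR-126b, -0.12 for miR-126a-3p, -0.024 for miR-126a-5p, 0.0039 for miR-143-3p and 0.0093 for miR-143-5p, and the endothelial median was 0.050. The log2 ratios were then -0.24 for miR-143-3p to miR-145-5p, -0.10 for miR-126a-3p to miR-126a-5p and 0.14 for miR-145-5p to miR-145-3p, and the limma 5p to 3p differences 0.10 for miR-126a and 0.14 for miR-145. Leaving out both replicates 2, an alternative chosen after seeing the data, gave -0.57 for miR-126b, 0.18 for miR-143-3p, -0.073 for miR-143-5p and -0.086 for miR-145-5p to miR-126a-3p, and 5p to 3p differences of -0.50 for miR-145 and -0.26 for miR-143.

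With 1 library left out, log2 fold changes ranged from -0.12 to 0.14 for miR-126a-3p, -0.17 to -0.019 for miR-126a-5p, -0.44 to -0.049 for miR-126b, 0.010 to 0.50 for miR-143-3p, 0.0037 to 0.21 for miR-143-5p, -0.25 to 0.10 for miR-145-5p and -0.086 to 0.59 for miR-145-3p. Log2 ratio differences ranged from -0.11 to 0.72 for miR-143-3p to miR-145-5p, -0.11 to 0.23 for miR-126a-3p to miR-126a-5p, 0.16 to 0.45 for miR-143-3p to miR-126a-3p, -0.36 to 0.27 for miR-145-5p to miR-126a-3p, -0.070 to 0.38 for miR-143-3p to miR-143-5p and -0.88 to 0.25 for miR-145-5p to miR-145-3p. Limma's 5p to 3p differences ranged from -0.23 to 0.11 for miR-126a, -0.38 to 0.070 for miR-143 and -0.88 to 0.25 for miR-145. The cause of these shifts was not tested. The filter of 10 CPM left no value for miR-126b. No paired analysis was made because the labels give neither replicate numbers nor pairs. With 3 animals per group the 95% intervals were wide, and no detection limit was computed.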
